A study of Mus musculus with 18 samples.

Results

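The ATP-binding cassette (ABC) transporters were followed as a family in mouse breast cancer cells given docetaxel. Members were the genes whose symbol consists of Abc, a subfamily letter from a to g, a number and at most 1 further letter, with the counts of all transcript models of a symbol added up. This rule took 50 of 32765 symbols, and 25 of the 50 reached 1 CPM (1 count for every 1000000 in the library) in at least 3 of the 18 libraries. Detection at 1 CPM used unscaled library totals, and all other levels are CPM of the library size after TMM scaling unless stated.

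ABC proteins bind and hydrolyse ATP, and most use that energy to move lipids, peptides, metal complexes or drugs across a membrane. The members of subfamilies E and F have no membrane span and act on ribosomes. Some exporters, among them P-glycoprotein, which mice encode with Abcb1a and Abcb1b, can carry docetaxel out of the cell and are known for taxane resistance.

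The cells were PyMT-BO1, a C57BL/6 mouse line described as luminal B-like breast cancer, and every group carried a knockout of integrin β3, an adhesion receptor subunit. A retrovirus returned functional human integrin β3 (hβ3), a mutant integrin β3 that cannot signal (Δβ3), or nothing but the empty vector (pMx). The 6 groups were hβ3 with docetaxel, hβ3 with DMSO, Δβ3 with docetaxel, Δβ3 with DMSO, pMx with docetaxel and pMx with DMSO, where docetaxel, a drug that stabilises microtubules, was given at 10 nM and both treatments lasted 24 h. Each group had 3 cultures of 1 line per construct, and a p-value here therefore reflects how far cultures of a line differ, not how far independently made lines would.

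Libraries held 7972612 to 18961392 counts, of which 15030 to 43151 belonged to ABC members. Itgb3, the knocked-out gene, averaged 107.4 ± 10.2 CPM in hβ3 docetaxel cultures, 108.5 ± 31.7 CPM in hβ3 DMSO cultures, 84.7 ± 44.9 CPM in Δβ3 docetaxel cultures and 96.6 ± 26.0 CPM in Δβ3 DMSO cultures, against 0.633 ± 0.210 CPM in pMx docetaxel cultures and 0.965 ± 0.557 CPM in pMx DMSO cultures (SD, n = 3 each). The luminal keratins Krt8 and Krt18 stood at 544 to 1906 CPM in every library, while the luminal markers Epcam, Krt19, Esr1 and Elf5 stayed below 0.19 CPM and Gata3 was at 0. The share of counts in Rn45s, the ribosomal RNA precursor, was 6.59% to 9.81% in pMx libraries. It was 10.9% to 33.0% in hβ3 DMSO and 11.1% to 19.2% in hβ3 docetaxel libraries. In Δβ3 it was 41.5% in DMSO culture 1, 23.6% in docetaxel culture 2 and 6.92% to 10.0% in the other libraries. Every hβ3 library thus had a higher share than every pMx library and these other Δβ3 libraries. The part of this in the line differences was not tested.

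One of these libraries stood apart in several ABC members. In Δβ3 docetaxel culture 2, 10 of the 50 members were more than 2-fold above their highest value in the other 17 libraries. The share of all genes that did so was not computed, so this count is not shown to be particular to the family. Markers of heart muscle, a list of 25 genes of which 24 had counts and Nppb was at 0, summed to 51713 CPM in that library, to 6222 CPM in Δβ3 DMSO culture 1 and to between 205 and 2621 CPM in the other 16. By group, the heart sum ranged over 205 to 814 CPM in hβ3 docetaxel, 243 to 546 CPM in hβ3 DMSO, 346 to 51713 CPM in Δβ3 docetaxel, 495 to 6222 CPM in Δβ3 DMSO, 251 to 2621 CPM in pMx docetaxel and 466 to 2288 CPM in pMx DMSO cultures. Single heart genes did not all follow the sum. In Δβ3 docetaxel culture 2, Tnnt2, Myl4, Myl7 and Mb were at 0. Csrp3 reached 1.86 CPM and Ldb3 2.79 CPM there, while Actc1 reached 9725 CPM. The sums for endothelium (13 genes, Tek at 0), for fibroblasts and pericytes and for leukocytes were also highest there. They were 844.3, 2652 and 192.6 CPM, against at most 99.2, 183.5 and 15.8 CPM in the other 16 libraries. Every result below was therefore also computed over the 16 libraries without Δβ3 docetaxel culture 2 and Δβ3 DMSO culture 1.

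The members that stood out in that library came from several subfamilies. Abcb4, the phospholipid exporter of bile canaliculi, was at 36.9 CPM in Δβ3 docetaxel culture 2 and at no more than 2.65 CPM in the other 17. Abcb1a was at 27.5 CPM there and at no more than 3.36 CPM elsewhere. The neighbouring genes Abca9 and Abca6, lipid transporter relatives on chromosome 11, were at 65.0 and 37.6 CPM there and at no more than 7.51 and 5.61 CPM elsewhere. The others were Abcd2 (14.3 CPM against at most 3.52), Abcd3 (219.5 against at most 101.0), Abcg1 (15.1 against at most 0.889), Abca12 (10.2 against at most 1.19), Abcc9, the regulatory subunit of potassium channels in heart and smooth muscle (4.04 against at most 0.198), and Abca4 (2.64 against at most 0.543). Abcb1b, the second P-glycoprotein gene, was at 0.776 CPM in that library, within its range elsewhere, and Abcc1 (207.5 CPM) and Abcb9 (63.6 CPM) were at their lowest of the 18 libraries. The part of heart and stromal transcripts in these levels was not tested.

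**Figure D1:**
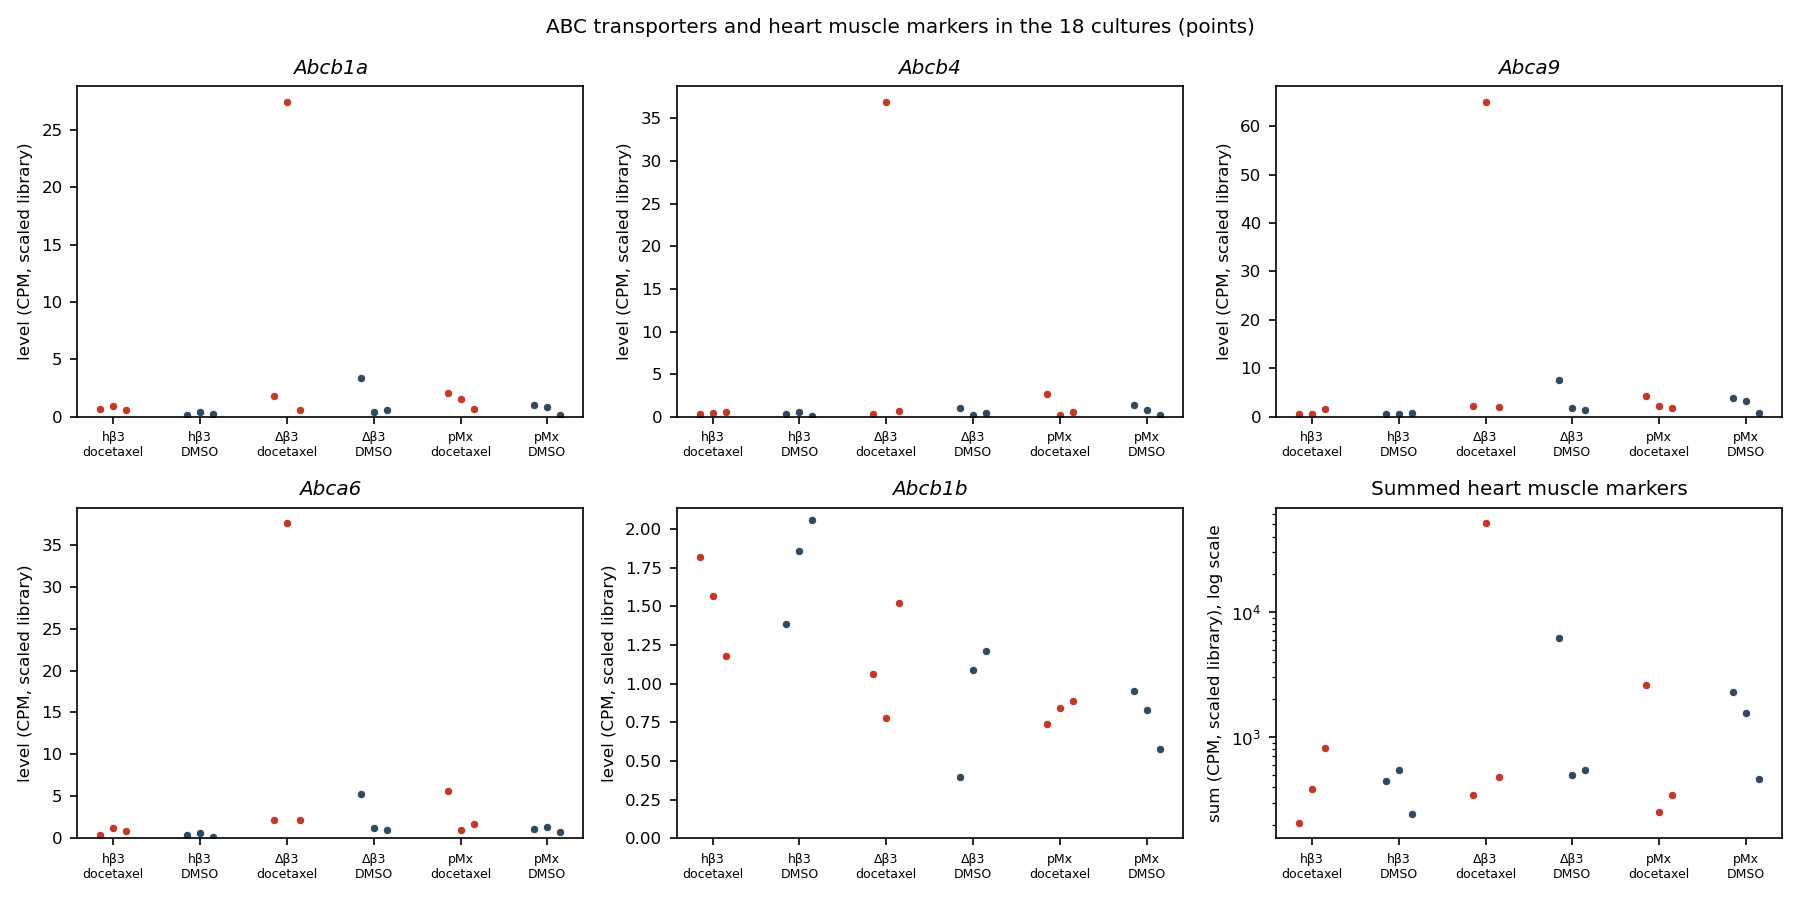
Level of Abcb1a, Abcb4, Abca9, Abca6 and Abcb1b, and the summed level of the heart muscle markers, in each of the 18 cultures (points, red with docetaxel and blue with DMSO; CPM of the scaled library, the marker sum on a log axis). Δβ3 docetaxel culture 2 is the highest point in every panel but that of Abcb1b, where it lies at 0.776 CPM among the other cultures.

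Detection differed between subfamilies. The 25 members that reached 1 CPM comprised 6 of 16 in subfamily A, 8 of 10 in B, 3 of 10 in C, 4 of 4 in D, the single E member, 2 of 3 in F and 1 of 6 in G. Of them, 15 passed 1 CPM in all 18 libraries and 10 in between 3 and 17. The members nearest inside the threshold were Abcb4 with 3 libraries, Abcd4 with 5 and Abcb1a with 6. The 3 libraries of Abcb4 were Δβ3 docetaxel culture 2, pMx docetaxel culture 1 and pMx DMSO culture 1. Their heart marker sums were 51713, 2621 and 2288 CPM. Without any 1 of them 24 members passed. Nearest outside were 5 members with 1 library each, given with their highest CPM of the unscaled total. These were Abca12 (7.68 CPM), Abcg1 (11.3 CPM), Abcc9 (3.02 CPM), Abca4 (1.98 CPM) and Abca13 (1.25 CPM). For all of them but Abca13 that library was Δβ3 docetaxel culture 2. The other 20 reached 1 CPM nowhere, and 7 of these had no count at all, among them Abcb11, the bile salt exporter, and Abcf2. At these depths a count of 0 allows a level of up to 0.158 to 0.376 CPM (3 counts, counting error only), and the treatment of reads that match more than 1 model of a gene is not known, so these members are not shown to be silent. Several drug exporters known from other tissues lay below the threshold, with 18 counts over all libraries for Abcc2, 3 for Abcc4 and 0 for Abcc3.

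With docetaxel, the largest change among the called members was in Abca1, the exporter that hands cholesterol and phospholipid to apolipoproteins, which rose about 3-fold in every line. The lipid transporters Abca2 and Abca5, the peroxisomal fatty acid transporter Abcd2 and the drug exporter Abcg2 rose too. The drug and leukotriene exporter Abcc1 and the translation factor Abcf1 fell. Over the mean of the 3 lines 6 members rose and 2 fell of 25 tested, so 8 were called at an adjusted p under 0.05, where 15.5% of all 12171 tested genes were called (7.85% higher and 7.64% lower). The median log2 change was 0.30 over the tested members and 0.06 over all tested genes. With 16 libraries, 8 rose and 3 fell, where 30.0% of 12383 tested genes were called. All p-values come from edgeR's quasi-likelihood test with Benjamini-Hochberg adjustment over all tested genes, and in RNA from whole cultures fewer cells of a type and less RNA per cell cannot be told apart.

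Abca1 lies on chromosome 4 (mm10, 53030787 to 53159895, minus strand). It was at 59.9, 54.4 and 61.8 CPM in hβ3 docetaxel cultures, against 17.8, 15.004 and 15.7 CPM in hβ3 DMSO cultures. It was at 183.9, 199.0 and 157.7 CPM in Δβ3 docetaxel cultures, against 65.4, 53.8 and 55.6 CPM in Δβ3 DMSO cultures. It was at 182.0, 155.9 and 169.3 CPM in pMx docetaxel cultures, against 58.8, 50.2 and 45.5 CPM in pMx DMSO cultures. In each line every docetaxel culture lay far above every DMSO culture, and the hβ3 docetaxel cultures lay within the range of the Δβ3 and pMx DMSO cultures. The mean log2 change was 1.73 ± 0.08 (SE; 95% interval 1.57 to 1.90, 3.33-fold, adjusted p = 7.1e-10), and 1.75 with 16 libraries. All 23 alternative settings kept this call.

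The start region of Abca1 is shown because this member was called in each comparison of docetaxel with DMSO and of hβ3 with another line, and the start region of Abca2 beside it because Abca2 moved the same way in both. Both windows run from 250 bases before to 50 bases after the RefSeq start (GRCm38.p6), at chr4:53159846-53160145 on the minus strand and chr2:25428349-25428648 on the plus strand. Capitals mark in Abca1 a match to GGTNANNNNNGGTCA, a relaxed form of the DR4 repeat bound by liver X receptors, read on the strand opposite to the gene 67 to 53 bases before the start, and in Abca2 a GC box (GGGCGG).
Abca1: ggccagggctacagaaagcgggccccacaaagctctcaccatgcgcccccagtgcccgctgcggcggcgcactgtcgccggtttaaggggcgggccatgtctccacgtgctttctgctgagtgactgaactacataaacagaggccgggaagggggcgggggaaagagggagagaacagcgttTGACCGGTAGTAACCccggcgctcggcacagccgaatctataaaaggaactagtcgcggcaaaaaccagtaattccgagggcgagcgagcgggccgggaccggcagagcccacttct
Abca2: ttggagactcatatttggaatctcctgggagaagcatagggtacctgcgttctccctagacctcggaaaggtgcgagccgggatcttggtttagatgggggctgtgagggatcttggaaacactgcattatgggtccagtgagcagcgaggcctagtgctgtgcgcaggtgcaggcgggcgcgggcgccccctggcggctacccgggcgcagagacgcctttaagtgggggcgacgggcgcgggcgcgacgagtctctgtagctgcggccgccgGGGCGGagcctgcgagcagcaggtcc
The relaxed letters were chosen after the Abca1 sequence had been read, and they occur on either strand in 68 of 32851 windows (0.207%) and in 1 of the 38 members that have a window. The strict repeat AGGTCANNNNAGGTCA occurs in 0.0152% of windows and in no member. GGGCGG occurs in 35.7% of windows and in 18 of the 38 members. These are matches of letters and not measured binding.

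Abca2, a lipid transporter of endosomes and lysosomes, changed less. It was at 170.7, 153.4 and 171.7 CPM in hβ3 docetaxel cultures, against 135.1, 126.3 and 133.4 CPM in hβ3 DMSO cultures. It was at 345.1, 290.3 and 309.0 CPM in Δβ3 docetaxel cultures, against 264.8, 237.9 and 246.5 CPM in Δβ3 DMSO cultures. It was at 329.1, 284.0 and 299.4 CPM in pMx docetaxel cultures, against 220.2, 201.9 and 195.9 CPM in pMx DMSO cultures. The docetaxel cultures lay above the DMSO cultures without overlap in each line (log2 0.41 ± 0.06, adjusted p = 0.000243). Abca5, a lysosomal relative, was at 13.5 to 16.8 CPM in hβ3 docetaxel against 11.8 to 12.6 CPM in hβ3 DMSO cultures, at 16.3 to 18.9 CPM in Δβ3 docetaxel against 6.62 to 13.6 CPM in Δβ3 DMSO cultures, and at 16.5 to 20.1 CPM in pMx docetaxel against 10.5 to 18.5 CPM in pMx DMSO cultures. Its groups overlapped in pMx, and its rise (0.47 ± 0.14, adjusted p = 0.0283) lost the call when hβ3 docetaxel culture 1 or 3, pMx docetaxel culture 1 or 3, or pMx DMSO culture 2 or 3 was left out, with adjusted p up to 0.0686, and with no filter on low counts (0.0568).

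Abca6 and Abca9, the neighbours of Abca5, were near 1 CPM in most libraries and were not called. Abca6 was at 0.438, 1.21 and 0.925 CPM in hβ3 docetaxel against 0.346, 0.682 and 0.142 CPM in hβ3 DMSO cultures, at 2.18, 37.6 and 2.15 CPM in Δβ3 docetaxel against 5.33, 1.24 and 0.952 CPM in Δβ3 DMSO cultures, and at 5.61, 1.03 and 1.69 CPM in pMx docetaxel against 1.12, 1.40 and 0.774 CPM in pMx DMSO cultures. Abca9 was at 0.656, 0.570 and 1.51 CPM in hβ3 docetaxel against 0.623, 0.682 and 0.710 CPM in hβ3 DMSO cultures, at 2.18, 65.0 and 2.06 CPM in Δβ3 docetaxel against 7.51, 1.78 and 1.47 CPM in Δβ3 DMSO cultures, and at 4.34, 2.15 and 1.92 CPM in pMx docetaxel against 3.98, 3.31 and 0.709 CPM in pMx DMSO cultures. Treatments overlapped in every line for both genes, and their highest values lay in libraries with high heart marker sums, whose part was not tested. The log2 change of Abca6 was 1.62 ± 0.65 (adjusted p = 0.114), and 1.12 ± 0.35 with 16 libraries (0.0203), while that of Abca9 was 1.05 ± 0.69 (0.354), and 0.29 with 16 (0.558).

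Among the drug exporters the 2 called members moved in opposite directions. Abcg2, the breast cancer resistance protein, was at 1.09, 2.64 and 1.60 CPM in hβ3 docetaxel against 0.831, 0.992 and 1.28 CPM in hβ3 DMSO cultures, at 7.98, 4.66 and 4.84 CPM in Δβ3 docetaxel against 2.77, 4.19 and 4.76 CPM in Δβ3 DMSO cultures, and at 7.83, 6.08 and 5.11 CPM in pMx docetaxel against 3.29, 4.20 and 3.74 CPM in pMx DMSO cultures. The groups were separate only in pMx, and the mean rise of 0.70 ± 0.19 (adjusted p = 0.0193) lost the call without hβ3 docetaxel culture 2 (0.0579). Abcc1, the multidrug resistance protein that exports glutathione conjugates, was at 357.2, 359.7 and 352.2 CPM in hβ3 docetaxel against 454.9, 424.8 and 433.2 CPM in hβ3 DMSO cultures, at 264.7, 207.5 and 259.5 CPM in Δβ3 docetaxel against 267.2, 297.6 and 298.5 CPM in Δβ3 DMSO cultures, and at 277.7, 244.8 and 255.7 CPM in pMx docetaxel against 294.5, 292.4 and 280.7 CPM in pMx DMSO cultures. Its docetaxel cultures lay below its DMSO cultures in each line, by a mean log2 of -0.23 ± 0.06 (adjusted p = 0.0200, and 0.0517 without hβ3 DMSO culture 1).

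The P-glycoprotein genes and Abcb4, which lie side by side on chromosome 5 (8660077 to 8959231), had low counts. Abcb1b was at 1.82, 1.57 and 1.18 CPM in hβ3 docetaxel against 1.39, 1.86 and 2.06 CPM in hβ3 DMSO cultures, at 1.06, 0.776 and 1.52 CPM in Δβ3 docetaxel against 0.395, 1.09 and 1.21 CPM in Δβ3 DMSO cultures, and at 0.741, 0.841 and 0.891 CPM in pMx docetaxel against 0.952, 0.828 and 0.580 CPM in pMx DMSO cultures. The groups overlapped in all 3 lines, and the mean log2 change was 0.07 ± 0.24 (95% interval -0.43 to 0.56, adjusted p = 0.881). Abcb1a was at 0.656, 0.926 and 0.589 CPM in hβ3 docetaxel against 0.139, 0.434 and 0.284 CPM in hβ3 DMSO cultures, at 1.81, 27.5 and 0.627 CPM in Δβ3 docetaxel against 3.36, 0.388 and 0.606 CPM in Δβ3 DMSO cultures, and at 2.12, 1.59 and 0.703 CPM in pMx docetaxel against 1.04, 0.892 and 0.129 CPM in pMx DMSO cultures. The groups were separate only in hβ3, where every culture was below 1 CPM. Its mean log2 change was 1.72 ± 0.71 with 18 libraries (adjusted p = 0.126), 1.24 ± 0.38 with 16 (0.0145) and 0.74 without Δβ3 docetaxel culture 2 alone (0.297). It also passed the threshold without Δβ3 docetaxel culture 3 (0.0490) or without Δβ3 DMSO culture 1 (0.0486), and in DESeq2 (log2 1.75, 0.0384).

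Abcb4 was at 0.365, 0.499 and 0.589 CPM in hβ3 docetaxel against 0.346, 0.558 and 0.142 CPM in hβ3 DMSO cultures, at 0.374, 36.9 and 0.717 CPM in Δβ3 docetaxel against 1.09, 0.233 and 0.433 CPM in Δβ3 DMSO cultures, and at 2.65, 0.187 and 0.609 CPM in pMx docetaxel against 1.38, 0.828 and 0.193 CPM in pMx DMSO cultures. A single culture was far above the rest, and the log2 change was 1.78 ± 0.87 with 18 libraries (adjusted p = 0.200) and 0.53 with 16 (0.481).

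Abcd2 takes very long-chain fatty acids into peroxisomes. It was at 1.97, 2.42 and 2.94 CPM in hβ3 docetaxel against 0.900, 0.682 and 0.497 CPM in hβ3 DMSO cultures, at 2.25, 14.3 and 2.96 CPM in Δβ3 docetaxel against 1.78, 1.47 and 2.08 CPM in Δβ3 DMSO cultures, and at 3.28, 3.46 and 3.52 CPM in pMx docetaxel against 1.56, 1.66 and 1.42 CPM in pMx DMSO cultures. Its docetaxel cultures lay above its DMSO cultures in each line (log2 1.59 ± 0.30, adjusted p = 0.00147, and 1.17 with 16 libraries). Abcd3, the abundant peroxisomal membrane transporter of branched-chain and dicarboxylic acids, ranged from 67.8 to 219.5 CPM and did not pass the test in this comparison (0.30 ± 0.14, adjusted p = 0.168).

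Of the ribosome-acting members, Abcf1, which binds initiation factor eIF2, was at 445.0, 504.3 and 477.7 CPM in hβ3 docetaxel against 566.1, 568.8 and 598.6 CPM in hβ3 DMSO cultures, at 402.6, 375.4 and 385.3 CPM in Δβ3 docetaxel against 661.7, 452.6 and 470.3 CPM in Δβ3 DMSO cultures, and at 354.7, 390.6 and 372.8 CPM in pMx docetaxel against 415.2, 463.7 and 429.1 CPM in pMx DMSO cultures. It lay lower with docetaxel in each line without overlap, by a log2 of -0.32 ± 0.08 (adjusted p = 0.00816). Abce1, the factor that splits ribosomes after termination, was at 271.8, 285.1 and 264.3 CPM in hβ3 docetaxel against 318.8, 451.4 and 329.7 CPM in hβ3 DMSO cultures, at 202.8, 169.1 and 183.2 CPM in Δβ3 docetaxel against 101.9, 234.8 and 252.5 CPM in Δβ3 DMSO cultures, and at 188.9, 181.5 and 183.9 CPM in pMx docetaxel against 289.8, 270.6 and 245.7 CPM in pMx DMSO cultures. Δβ3 DMSO culture 1, the library with the highest Rn45s share, was the only DMSO culture of its line below the docetaxel cultures. The log2 change of Abce1 was -0.35 ± 0.13 with 18 libraries (adjusted p = 0.0909) and -0.42 with 16 (1.2e-05). Abcf3, a relative of the yeast protein Gcn20, ranged from 88.6 to 140.5 CPM and had a log2 change of 0.01 (adjusted p = 0.967).

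Abcb6, Abcb8, Abcb9 and Abcb10 gave no call in this comparison. Abcb10, a mitochondrial transporter needed for heme synthesis, had a log2 change of -0.09. Abcb6, a transporter linked to porphyrins, had 0.02, Abcb8, part of a mitochondrial potassium channel complex, had 0.05, and the lysosomal peptide transporter Abcb9 had -0.17. The adjusted p of these 4 ranged from 0.331 to 0.932. Abcb6 was at 31.5, 30.1 and 33.6 CPM in hβ3 docetaxel, 37.4, 43.6 and 40.1 CPM in Δβ3 docetaxel and 42.5, 39.5 and 36.0 CPM in pMx docetaxel cultures, above the DMSO cultures in hβ3 and overlapping them in Δβ3 and pMx. Abcb8 was at 20.6, 37.7 and 20.9 CPM in Δβ3 docetaxel cultures and at 15.7 to 22.6 CPM in the other 15 libraries. Abcb9 was at 85.6, 99.96 and 98.4 CPM in hβ3 docetaxel, 136.9, 63.6 and 126.9 CPM in Δβ3 docetaxel and 112.6, 111.7 and 118.4 CPM in pMx docetaxel cultures, below the DMSO cultures in Δβ3 and pMx and overlapping them in hβ3.

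**Figure D2:**
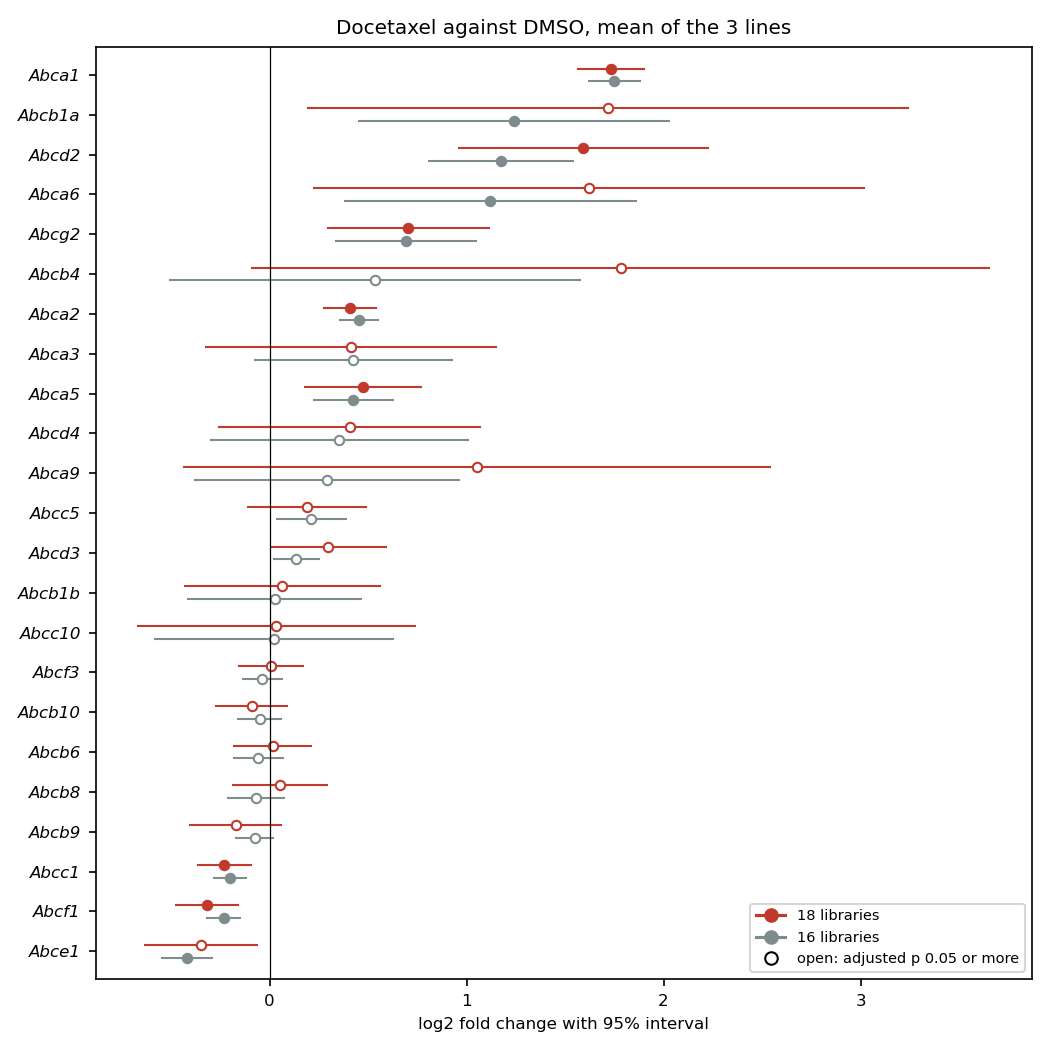
Log2 fold change of docetaxel over DMSO, as the mean of the 3 lines, for 23 of the 25 tested members, with its 95% interval (red with 18 libraries, grey with 16; open circles have an adjusted p of 0.05 or more). Abca1 at 1.73 has the narrowest interval of the members above 1, while Abcb1a, Abca6 and Abcb4 have wide ones that shrink with 16 libraries.

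Within single lines, Abca1 was called in all 3. In hβ3 it was the only member called, with a log2 change of 1.86 ± 0.14 (3.63-fold, adjusted p = 1.5e-06), where 1.16% of tested genes were called. In Δβ3 there were 2 calls, where 6.85% of genes were called, Abca1 with 1.63 ± 0.14 (5.8e-06) and Abcd2 with 1.83 ± 0.51 (0.0414). Abcd2 had a log2 change of 0.55 (0.366) with 16 libraries and lost the call in 18 of 23 settings, among them each that left out a single hβ3, pMx or Δβ3 DMSO culture or Δβ3 docetaxel culture 2 (0.257). In pMx there were 2 calls, where 3.61% of genes were called, Abca1 with 1.72 ± 0.14 (3.28-fold, 2.7e-06) and Abca2 with 0.56 ± 0.11 (0.00726), and Abca2 missed the threshold without pMx DMSO culture 2 (0.0532) or 3 (0.0541). In hβ3 the count was 2 without hβ3 DMSO culture 2 or Δβ3 DMSO culture 1, and 5 without Δβ3 docetaxel culture 2. In Δβ3 it was 6 without Δβ3 docetaxel culture 1 and 4 without culture 3. For these fits the share of all genes called was not computed. With 16 libraries the calls were 7 in hβ3 (background 12.4%), 2 in Δβ3 (11.3%) and 7 in pMx (21.2%), and the added members in hβ3 and pMx included Abcd2 (1.82 and 1.16) and Abce1 (-0.40 and -0.53).

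The size of the response was compared between lines with interaction terms, which share samples with the comparisons above. No member was called for hβ3 minus pMx (0.00822% of genes called), hβ3 minus Δβ3 (0.0411%) or Δβ3 minus pMx (0.0%), and none had an unadjusted p under 0.05 in edgeR. DESeq2 called 0 members as well, with 0, 1 and 0 at an unadjusted p under 0.05, and so did edgeR with 16 libraries, with 4, 3 and 0 (background 2.3%, 0.606% and 0.0%). The intervals bound how far the lines could differ. For Abca1 the log2 difference of the responses was 0.14 for hβ3 minus pMx (95% interval -0.26 to 0.55), 0.23 for hβ3 minus Δβ3 (-0.17 to 0.63) and -0.09 for Δβ3 minus pMx (-0.49 to 0.31). For Abcg2, with its lower counts, hβ3 minus pMx was 0.03 with an interval of -0.85 to 0.90. For Abcd2 it was 0.66 with an interval of -0.88 to 2.19.

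**Figure D3:**
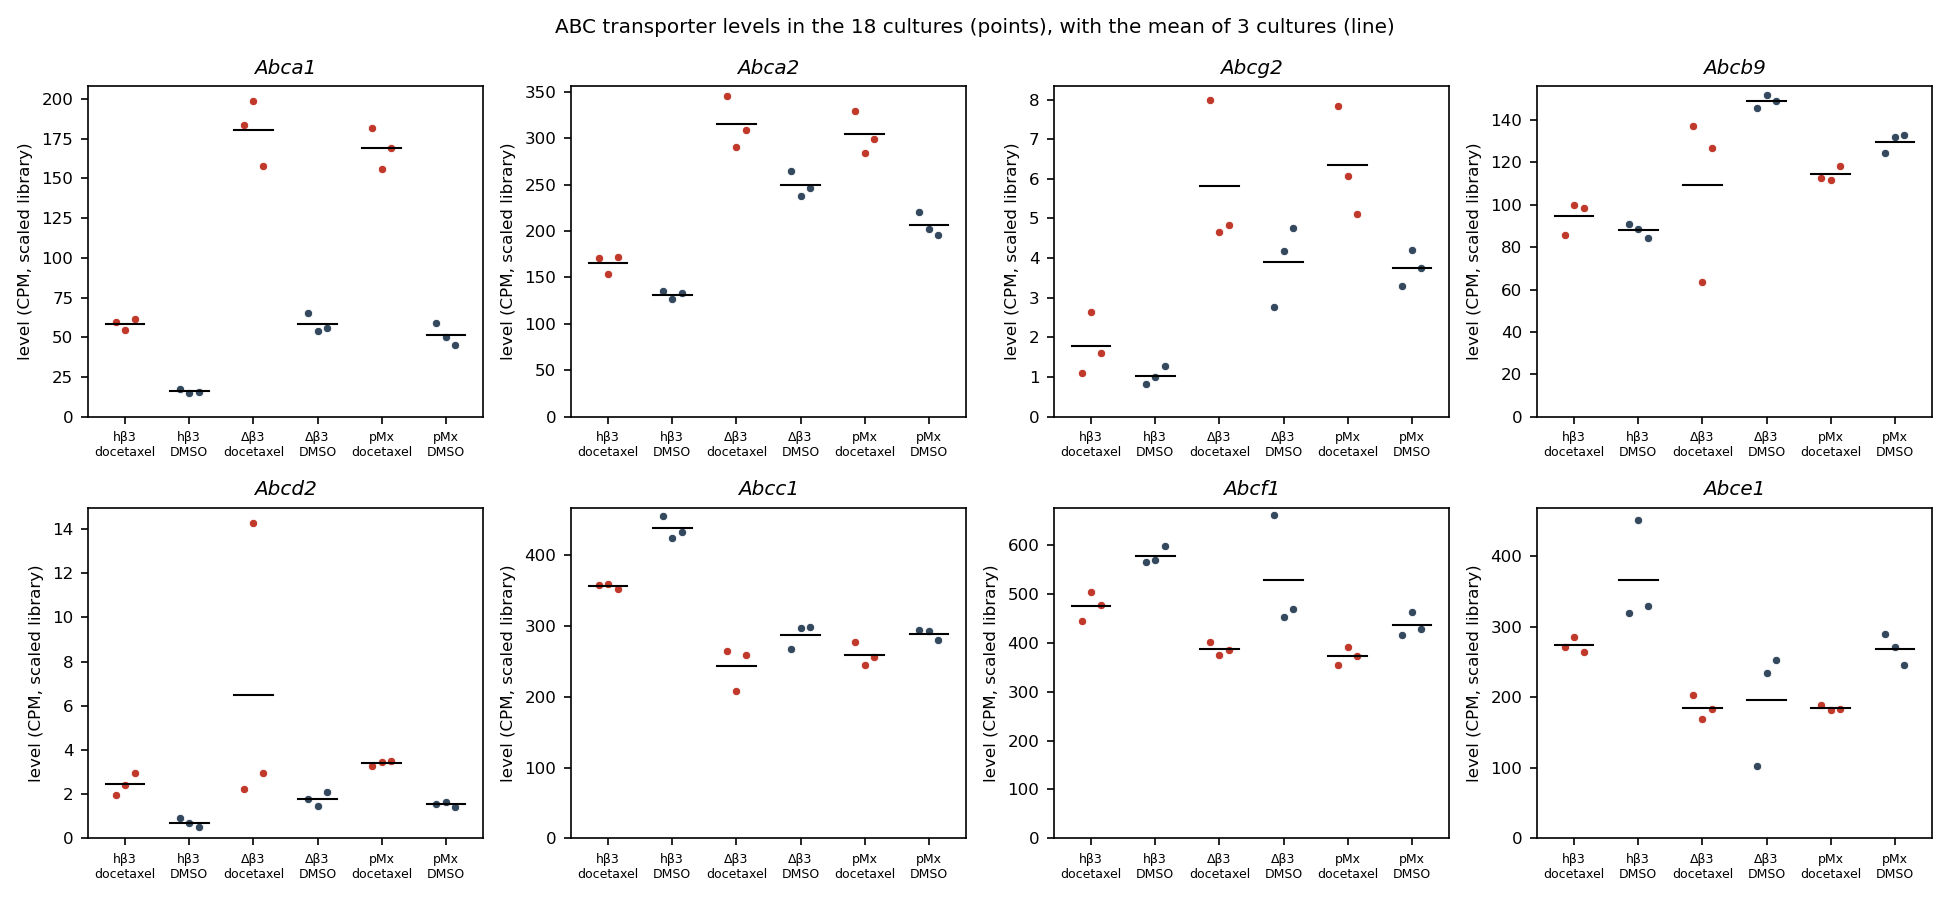
Level in each of the 18 cultures (points, red with docetaxel and blue with DMSO, CPM of the scaled library) and mean of the 3 cultures (line) for 8 members. Abca1, Abca2, Abcg2 and Abcb9 lie lower in DMSO in hβ3 than in Δβ3 and pMx and Abcc1 lies higher, while Abca1 is higher with docetaxel in every line.

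In DMSO, the line with functional integrin β3 had less of the lipid transporters Abca1 and Abca2, less Abcg2, and more Abcc1 than either of the other lines. Against pMx, 1 member was higher and 5 were lower in hβ3, so 6 of 25 were called, where 8.96% of genes were called (4.85% higher and 4.11% lower). Against Δβ3, 2 were higher and 5 lower, so 7 were called, where 13.0% of genes were called (6.22% higher and 6.83% lower). Both comparisons use the same hβ3 cultures. The median log2 difference over the tested members was -0.29 against pMx and -0.28 against Δβ3, and over all tested genes it was -0.01 and 0.00.

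Markers of other cell types differed between the lines too. In DMSO the endothelium sum was 15.2 to 17.5 CPM in hβ3, 51.0 to 117.7 CPM in Δβ3 and 44.8 to 71.7 CPM in pMx cultures. Much of it was Flt1, a receptor for vascular growth factors, at 8.52 to 10.003 CPM in hβ3, 37.7 to 46.0 CPM in Δβ3 and 35.7 to 43.1 CPM in pMx DMSO cultures, while Pecam1 was at no more than 0.346 CPM in these 9 cultures and Tek was at 0. The sum of the 11 markers of fibroblasts and pericytes, of which Pdgfrb was at 0, was 21.9 to 37.5 CPM in hβ3, 59.3 to 404.6 CPM in Δβ3 and 44.7 to 142.3 CPM in pMx DMSO cultures. The luminal epithelium sum was 1981 to 2077 CPM in hβ3, 3050 to 3416 CPM in Δβ3 and 2246 to 2588 CPM in pMx DMSO cultures. The endothelium, fibroblast and luminal sums were thus lower in hβ3 without overlap, and the leukocyte sums overlapped. In DMSO single markers did not all follow. Nearly all of the luminal sum was Krt8 and Krt18, and Krt18 overlapped between hβ3 and pMx. Cdh1 was instead higher in hβ3 (1.04 to 1.70 CPM) than in Δβ3 (0.395 to 0.779 CPM) and pMx (0.692 to 0.956 CPM). Foxa1 was higher in hβ3 (0.372 to 0.710 CPM) than in pMx (0.0645 to 0.173 CPM) and overlapped with Δβ3. Kdr and Col1a2 overlapped between hβ3 and both other lines. With docetaxel the endothelium sum was 15.02 to 27.6 CPM in hβ3, 67.9 to 844.3 CPM in Δβ3 and 58.6 to 99.2 CPM in pMx cultures. The part of these transcripts in the line differences of the transporters was not tested.

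Abca1 averaged 16.2 ± 1.45 CPM in hβ3 DMSO cultures, 58.3 ± 6.21 CPM in Δβ3 DMSO cultures and 51.5 ± 6.78 CPM in pMx DMSO cultures (SD, n = 3 each). That was 3.18-fold lower than in pMx (log2 -1.67 ± 0.14, edgeR adjusted p = 6.3e-07) and 3.60-fold lower than in Δβ3 (log2 -1.85 ± 0.14, 1.4e-07). Abca2 averaged 131.6 ± 4.70 CPM in hβ3, 249.7 ± 13.7 CPM in Δβ3 and 206.0 ± 12.6 CPM in pMx DMSO cultures, a log2 difference of -0.65 ± 0.11 against pMx (adjusted p = 0.000756 in edgeR) and -0.92 ± 0.11 against Δβ3 (1.8e-05). In both genes every hβ3 culture lay below every culture of the other lines.

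Abcg2 averaged 1.03 ± 0.226 CPM in hβ3, 3.90 ± 1.03 CPM in Δβ3 and 3.74 ± 0.458 CPM in pMx DMSO cultures, again without overlap. Relative to pMx its log2 difference was -1.85 ± 0.35 (3.61-fold lower, adjusted p = 0.00203), and relative to Δβ3 it was -1.91 ± 0.35 (0.00122). Abcc1 went the other way, with 437.6 ± 15.5 CPM in hβ3, 287.8 ± 17.8 CPM in Δβ3 and 289.2 ± 7.39 CPM in pMx DMSO cultures. All hβ3 cultures were above all others, by a log2 of 0.60 ± 0.11 against pMx (1.51-fold, adjusted p = 0.00177) and 0.60 ± 0.11 against Δβ3 (0.00122). Abcb1b had no call in either comparison, yet its hβ3 cultures (1.39 to 2.06 CPM) lay above the Δβ3 (0.395 to 1.21 CPM) and pMx cultures (0.580 to 0.952 CPM). Its log2 difference from pMx was 1.17 ± 0.41 (adjusted p = 0.0918, and 0.0127 with 16 libraries).

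Abcb6, at 28.0, 27.7 and 28.2 CPM in hβ3, 28.2, 46.3 and 42.9 CPM in Δβ3 and 41.7, 49.2 and 42.6 CPM in pMx DMSO cultures, was called lower against pMx (-0.67 ± 0.16, adjusted p = 0.0125, and 0.0784 without pMx DMSO culture 2). Against Δβ3 it was -0.49 ± 0.16 (0.0572), and -0.69 with 16 libraries (2.3e-05). The exons of Abcb6 overlap a noncoding gene on the same strand.

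Abcb9, at 91.0, 88.4 and 84.2 CPM in hβ3, 145.8, 151.5 and 148.8 CPM in Δβ3 and 124.3, 132.0 and 132.7 CPM in pMx DMSO cultures, was called lower against Δβ3 (-0.76 ± 0.19, adjusted p = 0.0129, and 0.0514 without hβ3 DMSO culture 3) and had -0.56 against pMx (0.0823). Abce1 was called higher in hβ3 against Δβ3 (0.90 ± 0.23, adjusted p = 0.0159), a call that was lost without hβ3 DMSO culture 2 (0.0916), and its log2 difference was 0.58 with 16 libraries. With 16 libraries, 4 members were higher and 10 lower against pMx (14 of 25, background 26.7%), and 3 were higher and 8 lower against Δβ3 (11 of 25, background 23.2%). Leaving out Δβ3 docetaxel culture 2 alone gave 11 calls against pMx and 12 against Δβ3. The share of all genes called in that fit was not computed, so the increase is not shown to be particular to ABC members. All members called with 18 libraries were also called with 16 in these comparisons.

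**Figure D4:**
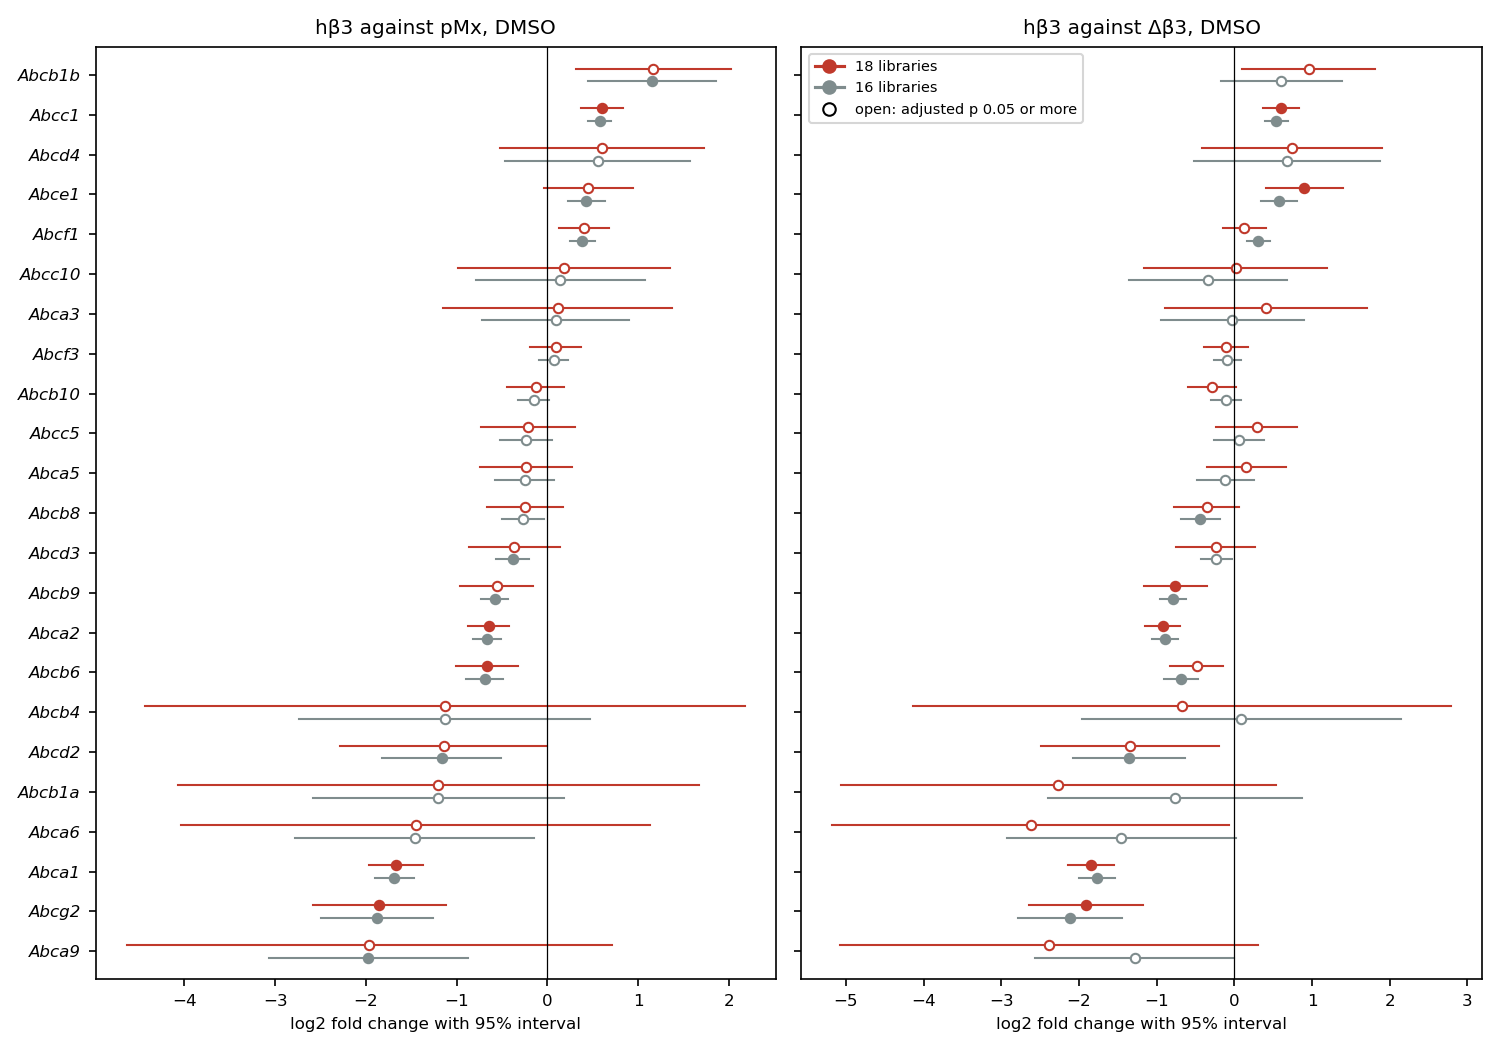
Log2 difference of hβ3 from pMx in DMSO (left) and of hβ3 from Δβ3 in DMSO (right) for 23 of the 25 tested members, with the 95% interval (red with 18 libraries, grey with 16; open circles have an adjusted p of 0.05 or more). In both panels Abca1, Abca2 and Abcg2 are called lower in hβ3 and Abcc1 is called higher.

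Under docetaxel, Abca1, Abca2 and Abcg2 were lower and Abcc1 was higher in hβ3 than in each of the other lines. Against pMx, 1 was higher and 4 were lower, so 5 of 25 were called, where 8.44% of genes were called (4.62% higher and 3.82% lower). Abca1 averaged 58.7 ± 3.81 CPM in hβ3 docetaxel, 180.2 ± 20.9 CPM in Δβ3 docetaxel and 169.1 ± 13.1 CPM in pMx docetaxel cultures, and hβ3 lay below both without overlap. The log2 differences from pMx, by edgeR, were -1.53 ± 0.14 for Abca1 (adjusted p = 1.7e-06), -0.88 ± 0.11 for Abca2 (4.4e-05), -1.82 ± 0.34 for Abcg2 (0.00208) and 0.46 ± 0.11 for Abcc1 (0.0135). The call of Abcc1 was lost without hβ3 docetaxel culture 1 or 2 or pMx docetaxel culture 2 or 3, with adjusted p up to 0.0752. The count was 3 without any 1 of these 4 cultures, where the share of all genes called was not computed. With 16 libraries the count was 12 (4 higher and 8 lower, background 27.3%).

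Against Δβ3, 1 member was higher and 7 were lower in hβ3 docetaxel cultures, so 8 of 25 were called, where 10.0% of genes were called (4.37% higher and 5.67% lower). The log2 differences were -1.62 ± 0.14 for Abca1 (edgeR adjusted p = 9.9e-07), -0.93 ± 0.11 for Abca2 (2.9e-05), -1.72 ± 0.34 for Abcg2 (0.00335) and 0.55 ± 0.11 for Abcc1 (0.00401). Abca9, Abca6 and Abcb8 were also called and were high in Δβ3 docetaxel culture 2. Abca9 was at 0.570 to 1.51 CPM in hβ3 docetaxel, against 2.06 to 65.0 CPM in Δβ3 docetaxel cultures, and Abca6 at 0.438 to 1.21 CPM in hβ3 docetaxel, against 2.15 to 37.6 CPM in Δβ3 docetaxel cultures. Abcb8 was at 17.2, 16.2 and 16.6 CPM in hβ3 docetaxel, against 20.6, 37.7 and 20.9 CPM in Δβ3 docetaxel cultures.

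In all 3 genes every hβ3 culture lay below every Δβ3 culture, while 1 Δβ3 culture set the size of the difference. The log2 differences were -4.65 ± 1.30 for Abca9 (edgeR adjusted p = 0.0387), -3.99 ± 1.15 for Abca6 (0.0440) and -0.66 ± 0.20 for Abcb8 (0.0442) with 18 libraries. With 16 libraries they were -1.24 (0.154), -1.33 (0.134) and -0.32 (0.0723), and none was called. None was called either with no filter on low counts (adjusted p 0.0759 to 0.0930) or with the replicate number as a block (0.0544 to 0.106). The heart marker sum was 51713 CPM in that culture and 346 and 481 CPM in the other Δβ3 docetaxel cultures, and its part in these differences was not tested. The count of calls was 8 with 16 libraries too (3 higher and 5 lower, background 19.8%), with Abcb9, Abce1 and Abcf1 in place of these 3. It was 13 without Δβ3 docetaxel culture 1 or 3. It was 4 or 5 on leaving out any single hβ3 culture, pMx docetaxel culture 2 or 3, or pMx DMSO culture 1 or 2. For these fits the share of all genes called was not computed.

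Between Δβ3 and pMx no ABC member was called, in DMSO (0.0411% of genes called) or in docetaxel (0.0246%). In edgeR 3 members had an unadjusted p under 0.05 in DMSO and 5 in docetaxel. DESeq2 called 0 in both, as did edgeR with 16 libraries, with 3 and 2 at an unadjusted p under 0.05 (background 0.331% and 0.46%). The log2 difference of Abca1 was 0.18 in DMSO (95% interval -0.11 to 0.46) and 0.09 in docetaxel (-0.19 to 0.37). That of Abcc1 was -0.01 in DMSO (-0.24 to 0.23) and -0.09 in docetaxel (-0.32 to 0.14). That of Abcg2 was 0.06 in DMSO (-0.63 to 0.75) and -0.11 in docetaxel (-0.79 to 0.57). Abca2 lay higher in Δβ3 than in pMx DMSO cultures without overlap, by 0.28 (0.05 to 0.50, adjusted p = 0.457).

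In all, 14 of the 25 tested members were called in at least 1 of 13 comparisons and 11 in none. Of all 12171 tested genes, 3441 were called in at least 1. Besides Abcb1a, Abcb1b and Abcb4, the uncalled members included Abca3, Abcb10, Abcc5, Abcc10, Abcd3, Abcd4 and Abcf3. Abcb10 ranged from 72.0 to 122 CPM over the 18 libraries and Abcc5, an exporter of cyclic nucleotides and heme, from 17.8 to 44.6 CPM. Abca3, the surfactant lipid transporter of lung, reached at most 2.06 CPM, Abcc10 at most 2.14 CPM and Abcd4, a lysosomal vitamin B12 transporter, at most 2.02 CPM. These low members had few counts. Of the tested members, exons of Abcc10, Abca3, Abcb1a, Abcb1b, Abcb9 and Abcb10 overlap genes on the opposite strand. Counts without a stated strand setting cannot separate such genes.

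Genes that work with these transporters were read from lists of related genes. Of 10 tested genes of liver X receptor signalling and cholesterol efflux, 3 rose with docetaxel and none fell, over the mean of the 3 lines, with a median log2 change of 0.37, where 7.85% of genes rose and 7.64% fell. With 16 libraries 4 rose and 1 fell, with a median of 0.18 (background 30.0%). The 3 were Mylip, a ligase that degrades the LDL receptor and a known liver X receptor target (0.72 ± 0.08, edgeR adjusted p = 1.6e-05), the phospholipid transfer protein Pltp (1.00 ± 0.17, 0.00062) and Npc1 (0.39 ± 0.10, 0.0115). Mylip was, like Abca1, lower in hβ3 DMSO than in pMx DMSO cultures (-1.24, 1.9e-05) and than in Δβ3 DMSO cultures (-1.32, 7.8e-06). Npc1 was instead higher in hβ3 than in Δβ3 DMSO cultures (0.54, edgeR adjusted p = 0.0421, background 13.0% in either direction). With 18 libraries Mylip was the only one of the 10 called between hβ3 and pMx in DMSO (background 8.96%). With 16 libraries 3 were called higher and 1 lower in that comparison (background 26.7%).

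Of 12 tested genes of xenobiotic receptors and glutathione conjugation, which supply the substrates of Abcc1, 3 rose and none fell with docetaxel (median 0.41, background 7.85% higher and 7.64% lower), namely Mgst1 (1.14 ± 0.13, adjusted p = 2.3e-05), Gstm1 (1.03, 0.00367) and Gstm5 (0.56, 0.0189). With 16 libraries 4 rose and 1 fell (median 0.22, background 30.0% in either direction). The log2 changes were then 1.06 for Mgst1, 0.73 for Gstm1 and 0.36 for Gstm5. Gstm1 and Gstm5 were highest in Δβ3 docetaxel culture 2, the library with the highest heart sum, at 160.2 and 52.9 CPM, against 43.8 and 39.9 CPM for Gstm1 and 24.1 and 24.9 CPM for Gstm5 in the other Δβ3 docetaxel cultures. Of the 12, 1 was called higher and 2 lower in hβ3 than in pMx DMSO cultures (background 4.85% higher and 4.11% lower). Mgst1 (-2.04) and Gstm1 (-1.41) were lower. Cyp3a13, a cytochrome P450, was higher, at 1.18, 1.18 and 1.28 CPM in hβ3 and with 0 counts in pMx DMSO cultures (adjusted p = 0.00976). Of 13 genes of ribosome recycling and eIF2 control, which work with Abce1 and Abcf1, none rose and 4 fell with docetaxel (median -0.30, background 7.85% higher and 7.64% lower), Eif2s1, Eif2s2, Eif2s3x (each -0.37) and Etf1 (-0.27). With 16 libraries 1 rose and 5 fell (median -0.25, background 30.0% in either direction). In DMSO, 3 of the 13 were higher in hβ3 than in pMx cultures and none was lower (background 4.85% and 4.11%). With 16 libraries 7 were higher and 1 lower (background 26.7%, either direction).

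Of 17 peroxisome genes 2 rose and none fell (median 0.29), among them Acox3 (1.13 ± 0.25, adjusted p = 0.0048), and with 16 libraries 5 rose and 2 fell (median 0.18). Of 14 genes of heme synthesis and iron-sulfur clusters 1 rose and 2 fell (median -0.06), with 16 libraries 1 rose and 5 fell (median -0.11), and none of 4 tested Slco uptake transporters and of 1 tested Kcnj channel subunit was called. The background for these counts is that of docetaxel above. Between Δβ3 and pMx no gene of these lists was called in DMSO or in docetaxel with 18 libraries. With 16 libraries 1 Slco gene was lower in DMSO (background 0.331%).

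Tap2, a subunit of the peptide transporter of antigen presentation and an ABC transporter by structure with another symbol, rose as well. It was at 17.6, 19.0 and 17.7 CPM in hβ3 docetaxel against 8.10, 6.20 and 6.95 CPM in hβ3 DMSO cultures, at 19.6, 69.4 and 15.95 CPM in Δβ3 docetaxel against 22.9, 9.70 and 10.3 CPM in Δβ3 DMSO cultures, and at 22.5, 20.1 and 21.7 CPM in pMx docetaxel against 10.3, 9.11 and 9.35 CPM in pMx DMSO cultures. The groups overlapped only in Δβ3, where DMSO culture 1 lay among the docetaxel cultures, and the log2 change was 1.27 ± 0.25 (adjusted p = 0.00247) with 18 libraries and 1.13 with 16. Cftr, the chloride channel of the family, had 0.87 ± 0.39 (0.150) at no more than 1.03 CPM, and Tap1 was too low to be tested, at no more than 0.807 CPM.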

How the data were processed

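RNA from 18 cultures was sequenced after ribosomal RNA removal, with random hexamers, 13 PCR cycles and single 50-base reads, per the labels' protocols. The authors deposited raw counts per transcript model (63759 models). FastQC, HISAT2, featureCounts and the build mm10 are named in the submitters' processing notes. Versions, annotation, strand setting and the handling of reads shared between models were not given in the sources used here. Model lengths in bases, a further unit that the authors deposited, entered no test.

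Counts were summed per symbol. The 1 CPM rule used library totals. Tests used R 4.3.3 and edgeR 4.0.16 (filterByExpr, TMM, robust quasi-likelihood F-test, 1 coefficient per group over 18 libraries, two-sided, Benjamini-Hochberg over all tested genes, called at an adjusted p under 0.05). Intervals use the SE from the F statistic and a t distribution. Genes called in any of the 13 comparisons and Abcb1a, Abcb1b, Abcb4, Abcc1 and Abcg2 are given by library, as far as reported. Alternatives were RLE factors, DESeq2 1.42.0, no filter, 16 libraries, the replicate number as a block, and each library left out. Values of some counted genes are not reported here. Members, lists and tests were chosen with earlier results of these data known. Coordinates came from GENCODE M21 (50 of 50 members matched) and start regions from RefSeq GRCm38.p6 (38 of 50).

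Depth was 7972612 to 18961392 counts per library. Counts are not unique molecules, so limits cover counting error only. On simulated counts for docetaxel against DMSO, mean of the 3 lines (12171 genes), the fit recovered 15.1% of 73 genes changed 1.5-fold, 55.7% of 61 changed 2-fold and 87.9% of 66 changed 4-fold, with 10 false calls.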

Additional observations from a re-analysis of the deposited data

How the results depend on the processing

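Of 42 results for single members, 26 kept their direction and their side of the threshold under all alternatives, and the sign turned in 1, Abcb1b over the mean docetaxel response, at -0.029 without Δβ3 docetaxel culture 3 and -0.033 without Δβ3 DMSO culture 1, with no call (range -0.033 to 0.15 with 1 library left out). The count of members called changed by more than 1.5 times in these cases. With 16 libraries it was 7 for docetaxel in hβ3, 7 for docetaxel in pMx, 14 for hβ3 against pMx in DMSO, 11 for hβ3 against Δβ3 in DMSO and 12 for hβ3 against pMx in docetaxel. The biological coefficient of variation was 13.2% with these and 36.0% with 18 libraries. With no filter on low counts it was 4 for hβ3 against Δβ3 in docetaxel. DESeq2 gave 4 for docetaxel in hβ3 and 6 in Δβ3. Leaving out 1 library gave 7 to 10 for the mean response, 1 to 5 in hβ3, 1 to 6 in Δβ3, 1 to 3 in pMx, 5 to 11 and 3 to 7 for hβ3 against pMx in DMSO and in docetaxel, 6 to 12 and 4 to 13 for hβ3 against Δβ3, and 0 for Δβ3 against pMx and the response differences. Where such a fit left a group with fewer cultures, these are assumed to vary like the others. The share of all genes called was computed only for the main fits with 18 and with 16 libraries. The causes were not tested.

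Culture numbers only name cultures. Deviations of same-numbered cultures correlated at -0.53 to 0.46 between groups, and in only 1 of 15 pairs of groups did all 3 exceed 0.1. With the replicate block, 1 member was called for docetaxel in Δβ3 and 5 for hβ3 against Δβ3 in docetaxel, and the other counts stayed within 1.5 times.

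At 0.5 CPM 28 members passed the detection rule, at 2 CPM 20, with scaled CPM 25, with 16 libraries 24, and 24 to 25 with 1 library left out. Depth limits members near 1 CPM, and at 1.5-fold the simulated fit recovered 15.1% of changed genes.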
